A study of Oryza sativa with 8 samples.

Results

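The momilactone gene cluster of rice is a group of 6 loci on chromosome 4, and its root expression was compared between plants grown at a higher and at a lower supply of ammonium. The members were taken by locus identifier from the names of the array's probes, which gave 6 of 29689 rice loci and 11 of 43734 non-control spots. In locus order they are CPS4 (Os04g0178300), CYP99A3 (Os04g0178400), the unnamed Os04g0179100, MAS (Os04g0179200), KSL4 (Os04g0179700) and CYP99A2 (Os04g0180400). A RefSeq gene table (assembly ASM3414082v1) holds no such locus identifiers, but it lists 5 of these 6 names on chromosome 4 in the same order. From CPS4 to CYP99A2 that table has 6 protein-coding genes, and the 1 without a name lies between CYP99A3 and MAS, where the locus order puts Os04g0179100.

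Whole roots of cultivar Koshihikari were sampled after 10 days of growth in 1 mM ammonium chloride (4 arrays) or in 0.005 mM ammonium chloride (4 arrays). Each array carried RNA of 1 biological replicate labelled with Cy3, and no untreated or nitrogen-free group is among them. All arrays of a concentration shared 1 slide and no slide held both, and the effects of slide and ammonium concentration therefore cannot be told apart anywhere below. The share of spots well above background was 81.4% to 85.1% per array, with no saturated spot. All 4 loci listed as root markers and all 8 listed as markers of green tissue were well above background on all 8 arrays, whereas 3 of 4 seed markers were so on none. At 1 mM the green tissue markers were higher for 7 loci and lower for 1 (log2 changes of -0.32 to 1.92; 5 higher and 1 lower with spike-in scaling), and the root markers were higher for 1 and lower for 3 (-1.25 to 0.94). The 1 measured seed marker changed by -0.54. The part of these markers in the results below was not tested.

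Momilactones are labdane-related diterpenoids. Rice makes them in leaves as phytoalexins after infection and releases them from its roots, where they suppress the growth of neighbouring plants. Synthesis starts from geranylgeranyl diphosphate, a product of the plastid methylerythritol phosphate (MEP) pathway. The class II cyclase CPS4 turns it into syn-copalyl diphosphate, and the class I cyclase KSL4 turns that into syn-pimaradiene. The cytochromes P450 CYP99A2 and CYP99A3 oxidise this hydrocarbon, P450s encoded elsewhere in the genome take part in the steps that follow, and MAS, a short-chain dehydrogenase, gives momilactone A. Os04g0179100 was chosen as a locus of the momilactone A synthase type.

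The cluster did not move as 1 unit. At 1 mM ammonium MAS, KSL4 and CYP99A2 rose by 2.02 ± 0.22, 1.85 ± 0.17 and 1.29 ± 0.18 on the log2 scale (limma, ± SE, n = 4 per group), which is 4.07-fold, 3.61-fold and 2.44-fold. The value of KSL4 is a fitted one and its size is not settled, since its probe was well above background on only 1 of the 4 arrays at 0.005 mM. CYP99A3, CPS4 and Os04g0179100 fell, with log2 changes of -0.84 ± 0.10, -0.64 ± 0.11 and -0.32 ± 0.08, or 1.80-fold, 1.56-fold and 1.24-fold lower. All changes are 1 mM minus 0.005 mM, and levels are log2 signals with the array's 75th percentile set to 0. In locus order the first 3 members fell and the last 3 rose, a pattern described after the values had been seen.

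All 6 members passed an adjusted p of 0.05 in the fit across 24978 units, and the values of the groups did not overlap for any of them. Such results were common on these arrays. Of all units 76.1% passed in either direction, 32.2% as higher in 1 mM and 43.8% as lower, and 71.6% had groups that did not overlap. Of the members 3 of 6 were higher and 3 of 6 lower. KSL4, among the higher, passed the filter on dim probes only with its 1 mM arrays, which favoured that direction. The 3 higher members changed at least 2-fold, as did 9.85% of all units in that direction, and no member was at least 2-fold lower, as were 8.67% of units. These 2-fold counts depend on the setting: they were 2 higher and 2 lower with spike-in scaling, 3 and 1 without scaling, and 1 and 0 with normexp and quantile normalization. The median change was 0.49 over the members, which falls between the members that rose and those that fell, and -0.087 over all units; the median absolute change was 1.07 over the members and 0.41 over all units. A greater absolute change than that of MAS was found in 5.36% of units, and than that of Os04g0179100 in 60.3%. With every kept probe as its own unit, 5 of the 10 kept member probes were higher and 5 lower, beside 33.8% and 43.1% of 35950 probes. The 2 KSL4 probes, both among the higher, were kept only with their 1 mM arrays, which favoured that direction. Probes of 1 gene repeat that gene, so these are no counts of genes.

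**Figure D1:**
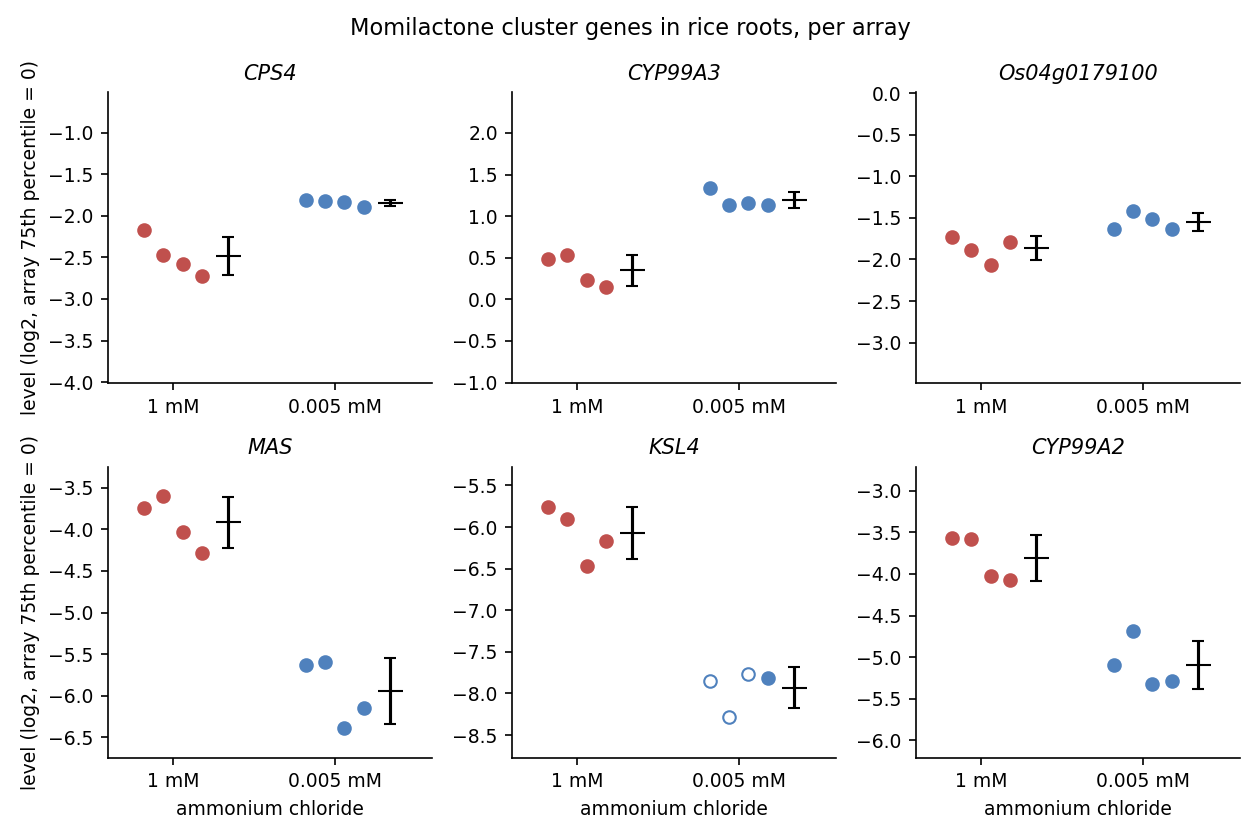
Log2 level of each cluster gene on each array (array 75th percentile = 0; every panel spans the same log2 range), with 1 mM arrays in red left of 0.005 mM arrays in blue, and group mean ± SD (n = 4) in black. Open circles are spots not well above background. CPS4, CYP99A3 and Os04g0179100 lie lower at 1 mM, and MAS, KSL4 and CYP99A2 lie higher, with no overlap of groups in any panel.

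The 2 cyclase genes moved in opposite directions. CPS4 had levels of -2.17, -2.47, -2.58 and -2.72 in replicates 1 to 4 at 1 mM, against -1.81, -1.83, -1.84 and -1.89 at 0.005 mM. The 0.005 mM arrays lay within a narrow band and the 1 mM arrays spread below it, with SDs of 0.23 at 1 mM and 0.036 at 0.005 mM (limma adjusted p = 0.000668). CPS4 has 3 probes, 2 named for transcript 01 and 1 for transcript 02 of the locus. Their log2 changes of -0.64, -0.68 and -0.63 differed by less than their standard errors of 0.078 to 0.12, so the fall did not depend on the probe.

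KSL4 stood at -5.76, -5.91, -6.47 and -6.17 in replicates 1 to 4 at 1 mM, against -7.86, -8.29, -7.76 and -7.81 at 0.005 mM (limma adjusted p = 2.06e-05). It was measured close to the limit of the array: this probe was well above background on 4 of 4 arrays at 1 mM and on 1 of 4 at 0.005 mM. Processed signals were 36.2 to 67.0 intensity units at 1 mM and 13.4 to 18.1 at 0.005 mM. The second KSL4 probe was well above background on all 4 arrays at 1 mM and on none at 0.005 mM. Its 1 mM mean was 4.40-fold higher than a bound at 0.005 mM. The bound was taken per array as the higher of the probe's own signal and the dimmest detected signal. Brighter signals also went undetected, so the bound gives no strict minimum. On replicate 1 at 0.005 mM the first KSL4 probe was not well above background at -7.86, while the dimmest detected signal was -8.75. The second probe passed the filter on dim probes only through the 1 mM arrays. It had to differ in this direction and is no independent support for the first. The first probe likewise reached the 4 arrays that the filter asks for only with its 1 mM arrays. The filter thus favoured its direction, and its adjusted p has to be read with that limit. With normexp background correction and quantile normalization, a setting chosen after seeing the files that adds an offset of 50 to every signal, the log2 change of KSL4 was 0.60 (limma adjusted p = 9.26e-05).

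The paired P450 genes CYP99A3 and CYP99A2 also moved apart. CYP99A3 was at 0.48, 0.54, 0.23 and 0.15 in replicates 1 to 4 at 1 mM, against 1.34, 1.13, 1.16 and 1.14 at 0.005 mM (limma adjusted p = 7.15e-05). Every 1 mM array lay below every 0.005 mM array, and replicate 1 at 0.005 mM stood above the other arrays of its group. CYP99A2 was at -3.56, -3.57, -4.02 and -4.07 at 1 mM, against -5.09, -4.69, -5.32 and -5.29 at 0.005 mM (limma adjusted p = 0.000209). Here every 1 mM array lay above every 0.005 mM array. Each gene has 1 probe. The genes are related copies, and whether their probes share signal was not tested.

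MAS and its neighbour Os04g0179100 likewise took opposite directions. MAS had levels of -3.74, -3.60, -4.04 and -4.29 in replicates 1 to 4 at 1 mM, against -5.63, -5.59, -6.39 and -6.15 at 0.005 mM (limma adjusted p = 4.90e-05). The gap between the groups was larger than the spread within either, with SDs of 0.31 at 1 mM and 0.40 at 0.005 mM. The second kept MAS probe changed by 2.07 ± 0.22 (limma adjusted p = 4.32e-05, all kept probes as units). Both are named for transcript 02 of the locus. The third probe, named for transcript 01, was not well above background on any of the 8 arrays and gives no level. With normexp and quantile normalization the log2 change of MAS was 1.38 (limma adjusted p = 3.91e-05).

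Os04g0179100 is represented by 1 probe designed on an expressed sequence tag, and whether it shares signal with the MAS probes was not tested. Its levels were -1.73, -1.88, -2.06 and -1.79 in replicates 1 to 4 at 1 mM, against -1.64, -1.41, -1.51 and -1.63 at 0.005 mM (limma adjusted p = 0.00869). The change was the smallest in the cluster, and the highest 1 mM array (replicate 1) lay just below the lowest 0.005 mM array (also replicate 1). Leaving out 1 array at a time gave log2 changes of -0.36 to -0.25, and the largest adjusted p among these fits was 0.0248 (limma).

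**Figure D2:**
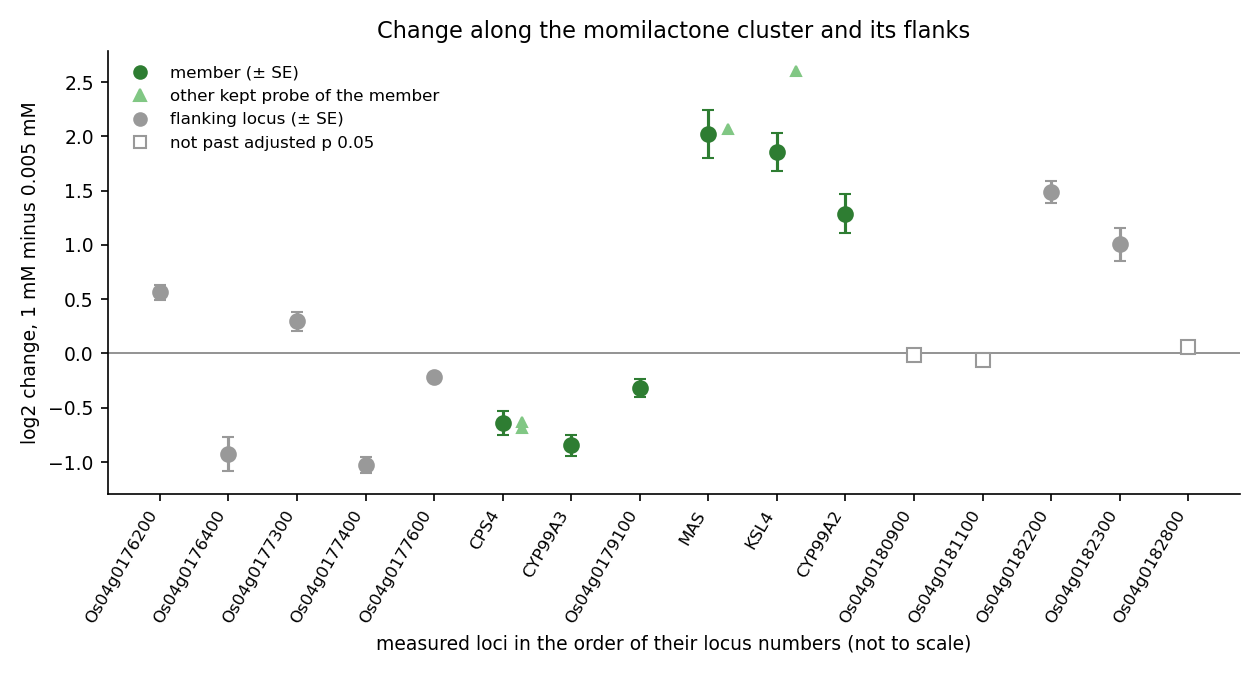
Log2 change (1 mM minus 0.005 mM, ± SE) of the cluster members in green and of the 5 nearest measured loci on either side in grey, in the order of their locus numbers and not to scale. Triangles are further kept probes of a member (that of KSL4 was not detected at 0.005 mM, so its height is no measured size), and open squares did not pass an adjusted p of 0.05. The members change sign once, between Os04g0179100 and MAS, and the flanking loci show both signs.

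The loci beside the cluster were examined in the same fit. Of the 5 nearest measured loci before CPS4, 2 were higher and 3 lower in 1 mM, with log2 changes of -1.03 to 0.56. Of the 5 nearest after CYP99A2, 2 were higher, and 3 did not pass the threshold, with changes of -0.061 to 1.49. Only 1 further locus on the array has a number between those of the members, Os04g0180300 between KSL4 and CYP99A2. It was well above background on 1 array at 1 mM and 1 at 0.005 mM and was not tested. Neighbouring members took the same direction in 4 of 5 pairs. Over the genome, 56.6% of 14408 pairs of neighbouring measured loci that were both called took the same direction, and the members' count is too small to set apart from that.

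The ratio of 2 members on the same array is independent of the scaling between arrays by a constant, and shows unequal change without showing which member changed. It was compared between the groups for the 5 neighbouring pairs by a two-sided exact permutation test, which with 4 against 4 arrays cannot go below p = 0.0286. The log2 ratio of MAS to Os04g0179100 was higher by 2.34 at 1 mM than at 0.005 mM, with no overlap of groups (exact permutation p = 0.0286, Benjamini-Hochberg adjusted over the 5 pairs p = 0.0476). MAS alone lay higher and Os04g0179100 alone lower on every 1 mM array. The ratio of MAS to Os04g0179100 therefore had to separate the groups, and its p is no further support. The ratio of Os04g0179100 to CYP99A3 was higher by 0.53, and that of CYP99A2 to KSL4 changed by -0.56, with the same exact p and adjusted p. For CYP99A2 to KSL4 the highest log2 ratio at 1 mM, 2.441, lay just below the lowest at 0.005 mM, 2.443. Replicate 2 at 0.005 mM stood highest at 3.60, and KSL4 was not well above background there. CYP99A3 to CPS4 changed by -0.20 (exact permutation p = 0.0857, adjusted p = 0.107) and KSL4 to MAS by -0.17 (exact permutation p = 0.60). Neither passed the threshold here, but both did with normexp and quantile normalization, at -0.25 and -0.79 (exact permutation, adjusted p = 0.0357 each), and KSL4 to MAS turned to 0.18 with the mean of probes. CYP99A3 to CPS4 also passed without replicate 2 of the 1 mM group, at -0.26 (exact permutation, adjusted p = 0.0476). The ratios of KSL4 to MAS and of CYP99A2 to KSL4 rest on a KSL4 signal near background, and the second turned to 0.28 with normexp and quantile normalization. With quantile normalization alone, none of the 3 differences kept an adjusted p under 0.05 (0.0714, 0.0714 and 0.107), at values of 0.57, 2.31 and -0.49. With 1 array left out, the ratios of MAS and of CYP99A3 with Os04g0179100 passed in 3 of 8 fits (without replicate 2 at 1 mM, or replicate 3 or 4 at 0.005 mM), with adjusted p up to 0.143 in the others (exact permutation). For MAS to Os04g0179100 the exact permutation p stayed at 0.0286 in all 8 fits and with quantile normalization. Only the adjustment over the 5 pairs moved there. For Os04g0179100 to CYP99A3 the exact permutation p rose to 0.0571 without replicate 4 at 1 mM or replicate 1 at 0.005 mM. CYP99A2 to KSL4 passed in 2 of 8 (without replicate 3 or 4 at 0.005 mM), with adjusted p up to 0.179. The 3 calls therefore stand at the limit of what 8 arrays can pass.

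**Figure D3:**
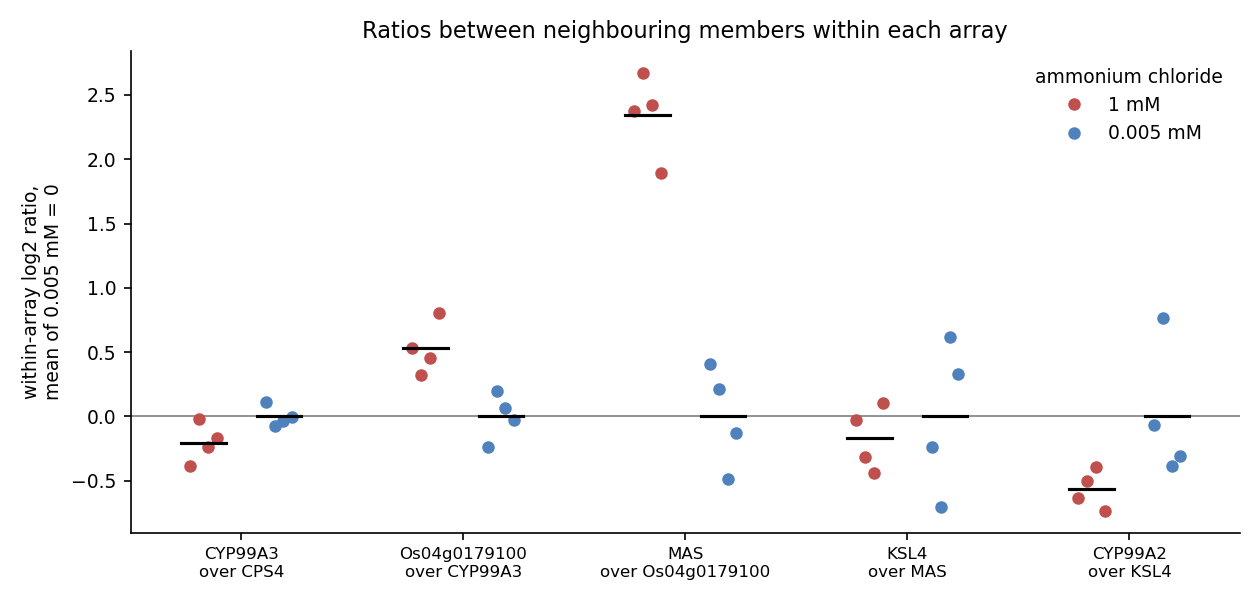
Log2 ratio between neighbouring cluster members within each array, each pair set to a mean of 0 over its 0.005 mM arrays, with 1 mM arrays in red left of 0.005 mM arrays in blue and group means as lines. The ratio of MAS to Os04g0179100 stands 2.34 higher at 1 mM, and the other pairs differ by 0.56 or less.

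Within the 1 mM group, the members of both directions varied together. Replicates 1 and 2 both lay above replicates 3 and 4 for 5 of the 6 members, Os04g0179100 being the exception. The means of replicates 1 and 2 exceeded those of replicates 3 and 4 by 0.32 for CYP99A3, 0.33 for CPS4, 0.48 for CYP99A2, 0.49 for KSL4, 0.49 for MAS and 0.12 for Os04g0179100. The median of this difference over all units was 0.0024, and 20.4% of units had both arrays above the other pair. Genes that fell and genes that rose at 1 mM were thus both higher on the same 2 arrays. At 0.005 mM the same 2 replicates lay above the others for 3 of 6 members, against 21.3% of units. This comparison was chosen after the values had been seen and was not tested, and the members share arrays and scaling.

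The other genes of the pathway were taken from 4 lists written from general knowledge, with names printed only where the RefSeq table places the symbol on the same chromosome and in the same order. Of the 4 listed genes that act in momilactone synthesis or its regulation outside the cluster, 1 rose and 3 fell. Beside this count and the list counts below, 32.2% of all units were higher in 1 mM and 43.8% lower. Where all 8 arrays had to be above background, 3 of the 4 genes were measured, 0 higher and 3 lower. The P450 gene CYP701A8 (Os06g0569500) was at -6.03, -5.94, -6.19 and -6.35 in replicates 1 to 4 at 1 mM, against -4.13, -4.01, -3.86 and -4.10 at 0.005 mM, a log2 change of -2.10 ± 0.10. Os04g0637000 was at -0.80, -0.70, -0.83 and -0.89 at 1 mM, against 0.54, 0.65, 0.78 and 0.83 at 0.005 mM, a change of -1.51 ± 0.07. Os01g0196300 changed by -1.57 ± 0.16. In these 3 every 1 mM array lay below every 0.005 mM array, and the groups did not overlap in 71.6% of all units.

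CYP76M8 (Os02g0569400), a P450 gene of the phytocassane cluster on chromosome 2 whose product also takes part in momilactone synthesis, rose by 2.85 ± 0.65 (limma adjusted p = 0.00401). Its probe was well above background on all 4 arrays at 1 mM but on 1 of 4 at 0.005 mM. It thus passed the filter on dim probes only with the 1 mM arrays, which favoured this direction. Levels were -5.23 to -4.76 at 1 mM and -9.89 to -6.31 at 0.005 mM, without overlap. The log2 change was 1.08 with normexp and quantile normalization, so its size is not settled. Leaving out 1 array at a time gave 2.20 to 3.39.

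**Figure D4:**
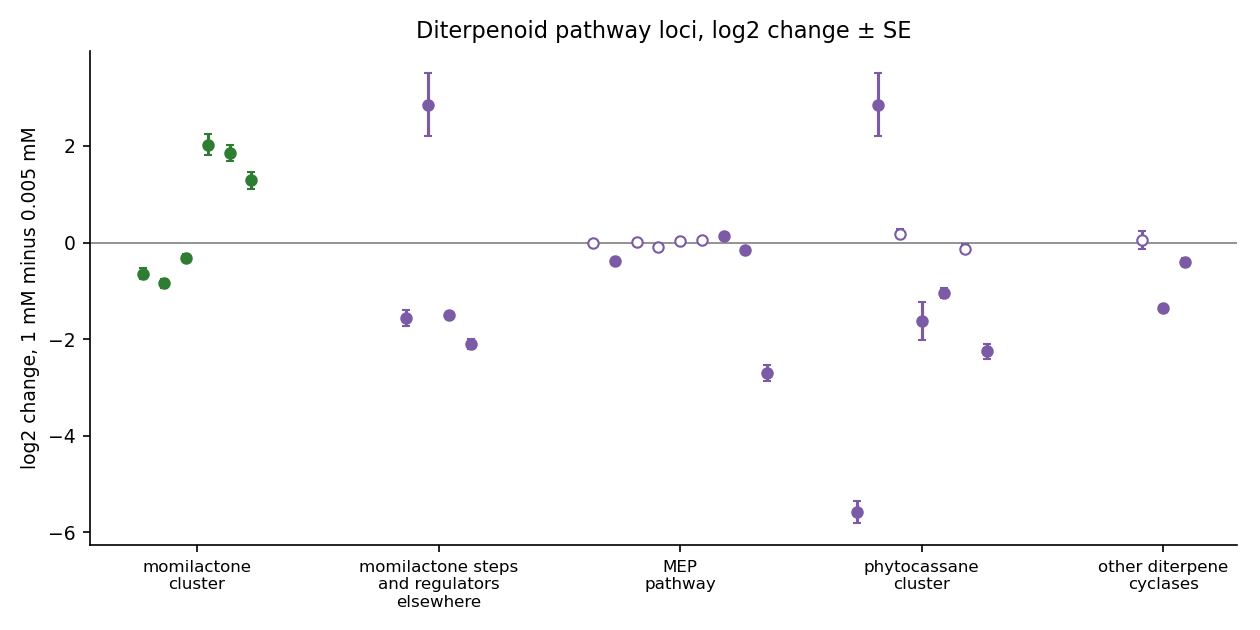
Fitted log2 change ± SE (1 mM minus 0.005 mM) of the measured loci of each list, in locus order within a list; open circles did not pass an adjusted p of 0.05. CYP76M8 stands in 2 lists, and the lowest point, CYP76M5 in the phytocassane list, was not well above background at 1 mM, so that its fitted value is no measured size. The cluster's members lie on both sides of 0, while 3 of 4 loci listed for momilactone steps and regulation elsewhere lie between -2.10 and -1.51.

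Of the 9 loci listed for the MEP pathway, which supplies the precursor, 1 rose, 3 fell and 5 did not pass the threshold. Os07g0190000 stood out in size at -2.70 ± 0.16, with levels of -2.73, -3.14, -3.58 and -3.32 in replicates 1 to 4 at 1 mM, against -0.35, -0.49, -0.51 and -0.61 at 0.005 mM. The other 8 had changes of -0.38 to 0.13, and the 2 further loci that fell were Os01g0802100 at -0.38 ± 0.06 and Os06g0142900 at -0.15 ± 0.04. The 1 locus that rose, Os05g0408900 at 0.13 ± 0.05, kept its call only without replicate 3 of either group when arrays were left out in turn, and lost it without any other array. Its direction depends on the probe: with the mean of its kept probes it was called lower, at -0.38 (limma adjusted p = 0.00136), and the list then had 0 higher and 5 lower. Among them DXR (Os01g0106900), CMS (Os01g0887100) and MCS (Os02g0680600), which encode enzymes of the pathway, had values of -0.02 ± 0.07, 0.0030 ± 0.036 and 0.02 ± 0.05 and did not pass. These small values also turn with the scaling: 8 of the 9 loci were called lower without scaling between arrays, and 9 of 9 with spike-in scaling. The median over all units moved to -0.36 and -0.47 in those settings, so most of this list followed the bulk of the array.

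Of the 10 loci listed for the phytocassane cluster, which makes a related group of diterpenoids, 7 were measured, 1 rose (CYP76M8), 4 fell and 2 did not pass (5 fell without scaling and with spike-in scaling). CYP76M6 (Os02g0571900) and CYP71Z7 (Os02g0570700), both P450 genes, changed by -2.25 ± 0.15 and -1.04 ± 0.11. CYP76M5 (Os02g0569000) was 30.2-fold lower at 1 mM against a bound taken as for the second KSL4 probe, which is no strict minimum. At 1 mM none of the 4 arrays had it well above background, against all 4 at 0.005 mM. Its log2 change was -2.54 with normexp and quantile normalization, so its size is not settled. It passed the filter on dim probes only through the 0.005 mM arrays. KSL7 (Os02g0570400), a cyclase gene, changed by -1.63 ± 0.40 with 2 arrays well above background at 1 mM and 4 at 0.005 mM, and by -0.40 with normexp and quantile normalization. KSL7 too passed the filter only with its 0.005 mM arrays. Both clusters thus held loci of either direction, but CYP76M8, the 1 phytocassane locus that rose, passed the filter only with its 1 mM arrays. Where all 8 arrays had to be above background, 3 phytocassane loci were measured, 0 higher and 2 lower. No difference between the clusters was tested. Of 4 further diterpene cyclase loci 3 were measured. KS1 (Os04g0611800), the ent-kaurene synthase gene of gibberellin synthesis, changed by -1.35 ± 0.07 and Os11g0474800 by -0.41 ± 0.08, while CPS1 (Os02g0278700), the cyclase gene of gibberellin synthesis, did not pass at 0.06 ± 0.19.

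The unit most alike to each member over the 8 arrays was found by Pearson correlation, given as a description because the separation of the groups sets most of it. For CPS4 it was Os04g0659900 (r = 0.996), for CYP99A3 Os04g0684300 (r = 0.998), and for Os04g0179100 Os02g0727700 (r = 0.975). For MAS it was Os09g0347800 (r = 0.995), for KSL4 Os08g0475300 (r = 0.997), and for CYP99A2 Os02g0794500 (r = 0.995). None of these is in the cluster or a list. Between 15 units (for Os04g0179100) and 2874 units (for CYP99A3) of 24911 reached r of 0.95. Within the cluster the closest pair was CYP99A2 and MAS at r = 0.984, followed by CPS4 and CYP99A3 at r = 0.958.

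The authors' deposited table lists 9 of the 11 member probes, each a call by their own test. It lists 64.9% of all non-control spots, with 9524 features higher and 18857 lower. In the authors' deposited table the log2 ratios of the average called nitrogen sufficient over that called deficient, read here as 1 mM and 0.005 mM, were -0.76, -0.81 and -0.75 for the 3 CPS4 probes. They were -0.97 for CYP99A3 and -0.45 for Os04g0179100 in the authors' deposited table, and 1.87 and 1.94 for MAS, 1.73 for KSL4 and 1.15 for CYP99A2. The directions are those found here for each of the 9 probes. Both come from the same deposited data, so this is no independent support. Over all listed probes kept here, the ratio in the authors' deposited table was lower by a median of 0.14, which is close to the shift of these values. The 2 probes not in the authors' deposited table are the dim MAS probe of transcript 01 and the second KSL4 probe, both well above background on no array at 0.005 mM.

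The direction of each member held under every setting that tested it. The filters, the replicate block and the other variance model returned the reported log2 changes and moved only the adjusted p. Scaling to 7 spike-in probes moved all changes downward, to 1.64, 1.47 and 0.91 for MAS, KSL4 and CYP99A2 and to -1.22, -1.02 and -0.70 for CYP99A3, CPS4 and Os04g0179100, and each passed the threshold. Relative to the median of all units in the same setting, CYP99A3 ranged from -0.76 to -0.75, CPS4 from -0.56 to -0.51 and Os04g0179100 from -0.23 to -0.17, so the falls were larger than the shift of the arrays as a whole. CYP99A2 ranged from 0.97 to 1.40, MAS from 1.48 to 2.14 and KSL4 from 0.69 to 2.32 on that scale. A constant per array cancels on this scale, so spike-in scaling and no scaling had to give the reported values. The narrow ranges therefore do not show that the falls are robust to such scaling.

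**Figure D5:**
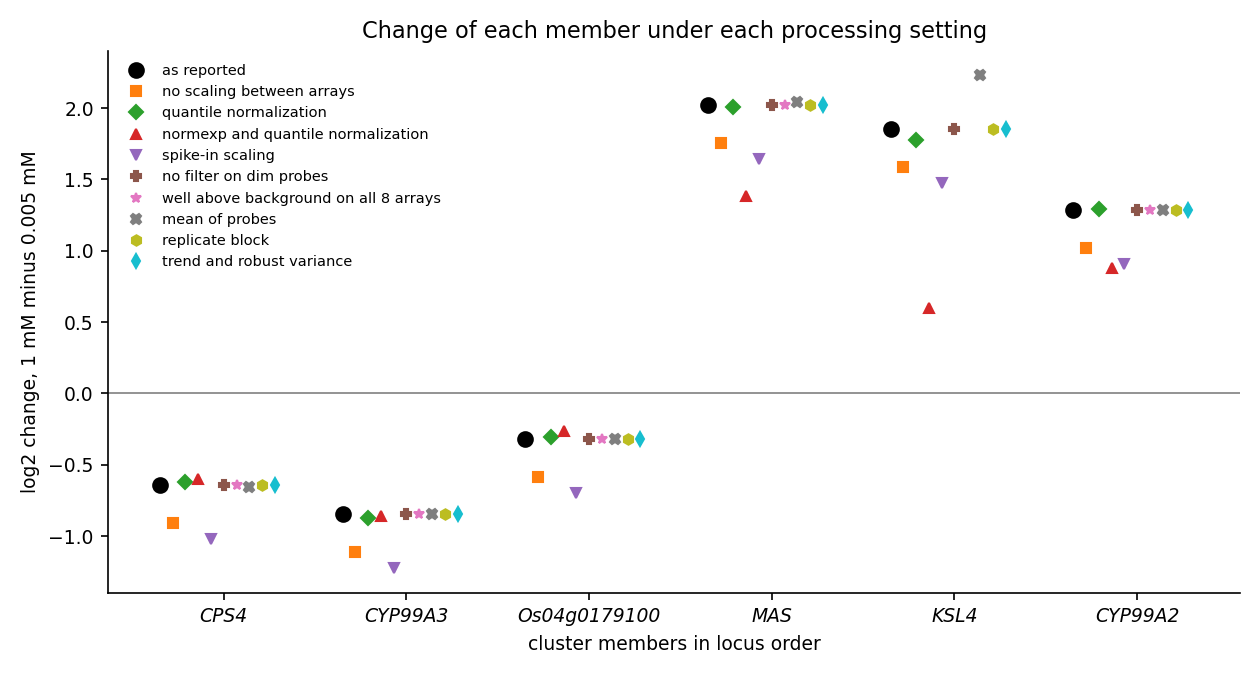
Log2 change (1 mM minus 0.005 mM) of each cluster member, in locus order, as reported (black circles) and under 9 other processing settings. All values of CPS4, CYP99A3 and Os04g0179100 lie below 0 and all values of MAS, KSL4 and CYP99A2 above it; KSL4 ranges from 0.60 to 2.23 and was not tested where all 8 arrays had to be above background. The filters, the replicate block and the other variance model returned the reported values, so these points are no further check of direction.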

How the data were processed

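Spots are given as linear intensity in the deposited scanner output of Agilent Feature Extraction 10.10.1.1 (version per the file headers), whose processed signal was used. For each listed feature the authors' deposited table adds a log2 ratio, a p-value and a q-value from a test not given in the sources used here. Its 8 columns of per-array values were left unused, since they carry other names than the samples.

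Levels are log2 processed signals less the 75th percentile of the array's non-control spots, after removal of outlier spots. A probe was kept if at least 4 of 8 arrays had it well above background, and the brightest kept probe stood for a locus. A value was missing on at least 1 array for 66 of the 24978 units, none of them a member. The comparison used limma 3.58.1 (R 4.3.3), two-sided, with p-values adjusted by Benjamini-Hochberg across every unit and called below 0.05. Neighbouring members were compared within arrays by exact permutation. The functions were tested on simulated data.

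Members, lists and tests were chosen with earlier results of these data known. By the naming rule every member, the locus between members, the unit most alike to each member and up to 4 list loci with the largest changes past the threshold are named; DXR, CMS, MCS, CPS1, CYP71Z7 and Os03g0731900 were added to these with their values known. Of 26 listed pathway loci, 16 have a name in the RefSeq table that fits their chromosome and order. Settings tried were other scalings, background correction, filters, the mean of probes, the replicate block, another variance model and each array left out. The files hold no mean signal, so normexp used the median signal. The number of arrays limits the precision.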

Additional observations from a re-analysis of the deposited data

Results flagged for a closer look

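Dixon's ratio, the distance of an extreme array to its closest neighbour as a share of the range of the 4 arrays, was taken for 12 groups (each member at each concentration), and 1 passed Dixon's critical value, as chance gives in about 1 in 20 groups. It was CYP99A3 at 0.005 mM (ratio 0.863), where replicate 1 had a level of 1.34 and the remaining arrays had 1.13 to 1.16. With that array left out CYP99A3 was still lower at 1 mM and called, with a log2 change of -0.80 (limma adjusted p = 0.000281).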

How the results depend on the processing

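All 6 members kept their direction and passed the threshold under every setting that tested them; KSL4 was not tested where all 8 arrays had to be above background, which left 2 members higher in place of 3. The filters, the replicate block and the other variance model could move only the adjusted p of a member. Leaving out 1 array gave -0.75 to -0.56 for CPS4, -0.91 to -0.78 for CYP99A3, 1.87 to 2.15 for MAS, 1.73 to 1.98 for KSL4 and 1.21 to 1.42 for CYP99A2. With the replicate block no member's call changed (3 higher and 3 lower), and 8110 units were higher and 11018 lower, against 8050 and 10950. Replicate numbers were not treated as pairs in the reported fit. The deviations of 1 mM and 0.005 mM arrays of equal number had correlations of 0.32, -0.01, 0.10 and 0.08. The highest correlation between arrays of different number was 0.101, which replicate 1 exceeded clearly and replicate 3 (0.103) barely. Without scaling between arrays 4884 units were higher and 14737 lower, and with spike-in scaling 4022 and 16083, so higher calls were 24.9% and 20.0% of all calls, against 42.4%.

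Among the ratios, quantile normalization gave 0.57, 2.31 and -0.49 for Os04g0179100 to CYP99A3, MAS to Os04g0179100 and CYP99A2 to KSL4, each past the threshold no longer. Normexp and quantile normalization brought CYP99A3 to CPS4 (-0.25) and KSL4 to MAS (-0.79) past it and turned CYP99A2 to KSL4 to 0.28. KSL4 to MAS turned to 0.18 with the mean of probes. Leaving out 1 array gave -0.26 to -0.14 for CYP99A3 to CPS4, 0.44 to 0.60 for Os04g0179100 to CYP99A3, 2.18 to 2.49 for MAS to Os04g0179100, -0.41 to 0.036 for KSL4 to MAS (above 0 without replicate 3 at 0.005 mM) and -0.69 to -0.31 for CYP99A2 to KSL4. With 3 against 4 arrays, both ratios with Os04g0179100 passed in 3 of 8 such fits, CYP99A2 to KSL4 in 2, CYP99A3 to CPS4 in 1 and KSL4 to MAS in 0. The exact permutation p of MAS to Os04g0179100 stayed at 0.0286 in each fit, so its lost calls came from the adjustment over the pairs. Of the listed loci, Os05g0408900, called higher at 0.13, turned to -0.14 without scaling, -0.25 with spike-in scaling and -0.38 with the mean of probes, and lost its call with the replicate block and with no filter on dim probes. Turned values of loci not called were -0.27 and -0.38 for CMS, -0.25 and -0.36 for MCS and -0.21 and -0.33 for Os03g0731900 without scaling and with spike-in scaling, and -0.19 for the last with the mean of probes. The causes were not tested. A slide block could not be run because no slide holds both concentrations. Signal near background limits KSL4, CYP76M8, CYP76M5 and KSL7.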
